A study of Mus musculus with 6 samples.

Results

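The MAPK and Ras kinase cascade was examined as a list of 34 genes in adipose tissue of mouse offspring, of which 30 were analysed among 22180 genes in all. The members were chosen by name as kinases, small GTPases, an exchange factor and a scaffold of the pathway. Each was represented by its brightest probe set with that gene symbol alone. Mapk3, Map2k7, Hras and Rps6ka1 were not analysed here. The 6 samples were adipose from offspring aged 32 weeks, 3 from dams fed a chromium restriction diet and 3 from dams fed a control diet. Chromium is a trace element taken up with food, and the design asks how the mother's intake of it bears on gene expression in the fat of her offspring. Total RNA was labelled with biotin and read on 1 array per sample. The labels name no strain, sex, fat depot or litter, and they do not say what the offspring themselves were fed. They number the samples without saying that they came from separate animals, so p-values measure only the spread between these samples, which may be technical.

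MAP kinase pathways pass signals through a chain of kinases, each of which phosphorylates the next. In the ERK1/2 branch a growth factor loads the GTPase Ras with GTP, Ras recruits Raf kinases, Raf activates the MAP kinase kinases MEK1 and MEK2, and these activate ERK1 and ERK2. The JNK and p38 branches answer to cytokines and cell stress, and the ERK5 branch to growth factors and stress through MEK5. In adipose tissue, ERK and p38 signalling are known for parts in lipolysis and brown fat gene expression, and JNK for its activation in obesity. These kinases are switched by phosphorylation, which transcript arrays do not measure.

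All values below are on a log2 scale, and differences are chromium restriction minus control. Array medians lay between 5.44 and 5.57. In these samples labelled adipose, all 7 measured adipocyte markers lay above the upper quartile of each array. So did all 7 macrophage and all 4 endothelium markers, so this alone does not single out adipose. The adipocyte mean was 11.55 to 11.73 in the chromium restriction arrays and 11.94 to 12.07 in the controls. Of the 7 adipocyte markers 1 lay in a row with extra digits, as defined below, and its part in the means was not tested. Chromium restriction replicates 1 and 3 stood apart by transcripts of liver, with a mean over 7 liver genes of 11.33 and 10.90. That mean was 6.55 in chromium restriction replicate 2 and 6.56 to 6.94 in the controls. Replicate 2 held more transcripts of T cells and B cells. All 5 measured T cell markers were highest there, with a list mean of 7.01 against 5.64 and 5.67 in replicates 1 and 3 and 5.69 to 5.90 in the controls. The B cell list, also with 5 of 5 markers highest in replicate 2, had a mean of 8.07 there, 6.83 and 6.48 in replicates 1 and 3, and 6.60 to 6.86 in the controls. Means of 8 intestinal genes were 5.63, 6.40 and 5.61 in chromium restriction replicates 1, 2 and 3, and 5.16 to 5.36 in the controls. Of these 8 genes 4 were highest in replicate 2. Above every control lay 6 of them in replicate 1, 6 in replicate 2 and 3 in replicate 3. Replicate 1 was also highest in the macrophage list, with a mean of 9.67 against 8.87 to 9.32 in the controls and 6 of 7 markers above every control. Its skeletal muscle mean was 6.73, against 6.14 to 6.24 in the controls. The mean of 5 brown fat markers was 5.57 to 5.95 in the chromium restriction arrays. Among controls it varied, being 8.93 in replicate 1, 5.75 in replicate 2 and 6.90 in replicate 3. The mesothelium mean was 7.31 to 7.56 in the chromium restriction arrays, and 6.41, 7.48 and 7.89 in control replicates 1, 2 and 3. The part of these transcripts in the member values was not tested. In whole tissue, fewer cells of a type and less RNA per cell cannot be told apart.

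No member passed the test of the 2 diets across all genes. With limma and Benjamini-Hochberg adjustment 0 of 30 members passed an adjusted p of 0.05, where 43 of all genes did (0.194%). At an unadjusted p under 0.05 the count was also 0 of 30, against 5.95% of all genes. The smallest adjusted p among the members was 0.817, for Map4k4. Differences were small and balanced, with 15 members above and 15 below 0, a median of -0.0027 and a range of -0.27 to 0.20. Over all genes the median difference was -0.018, and the median absolute difference was 0.084 against 0.076 among the members. None of the 30 members lay in a row with extra digits, meaning a probe set with values written more finely than the rest of the deposited table. With those rows left out, 0 of all genes passed in limma while 1265 had an unadjusted p under 0.05, so the 0.194% rests on them.

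The intervals show what sizes the 6 arrays could still hold. For 25 of 30 members the 95% interval of the difference lay within 1.5-fold in either direction, as it did for 80.0% of all genes. For all 30 it lay within 2-fold, against 95.2% of all genes. The 5 members with wider intervals were Rasgrp1, Map2k1, Map3k2, Mapk8 and Map3k4. Their lowest bound was -0.70, for Map2k1 and Map3k2, and the highest was 0.70, for Rasgrp1. In this fit of all 6 arrays, a difference of 2-fold was thus outside the interval of every member. The intervals hold for this fit alone, in which chromium restriction replicates 1 and 3 are rich in liver transcripts. With the mean of the 7 liver genes as covariate, member differences ran from -0.249 to 0.631, the highest being Rasgrp1. For replicate 2 alone against the controls they ran from -0.235 to 0.662. Intervals of those fits are not given here. What size of difference 3 arrays a group can detect was not tested on these arrays.

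**Figure D1:**
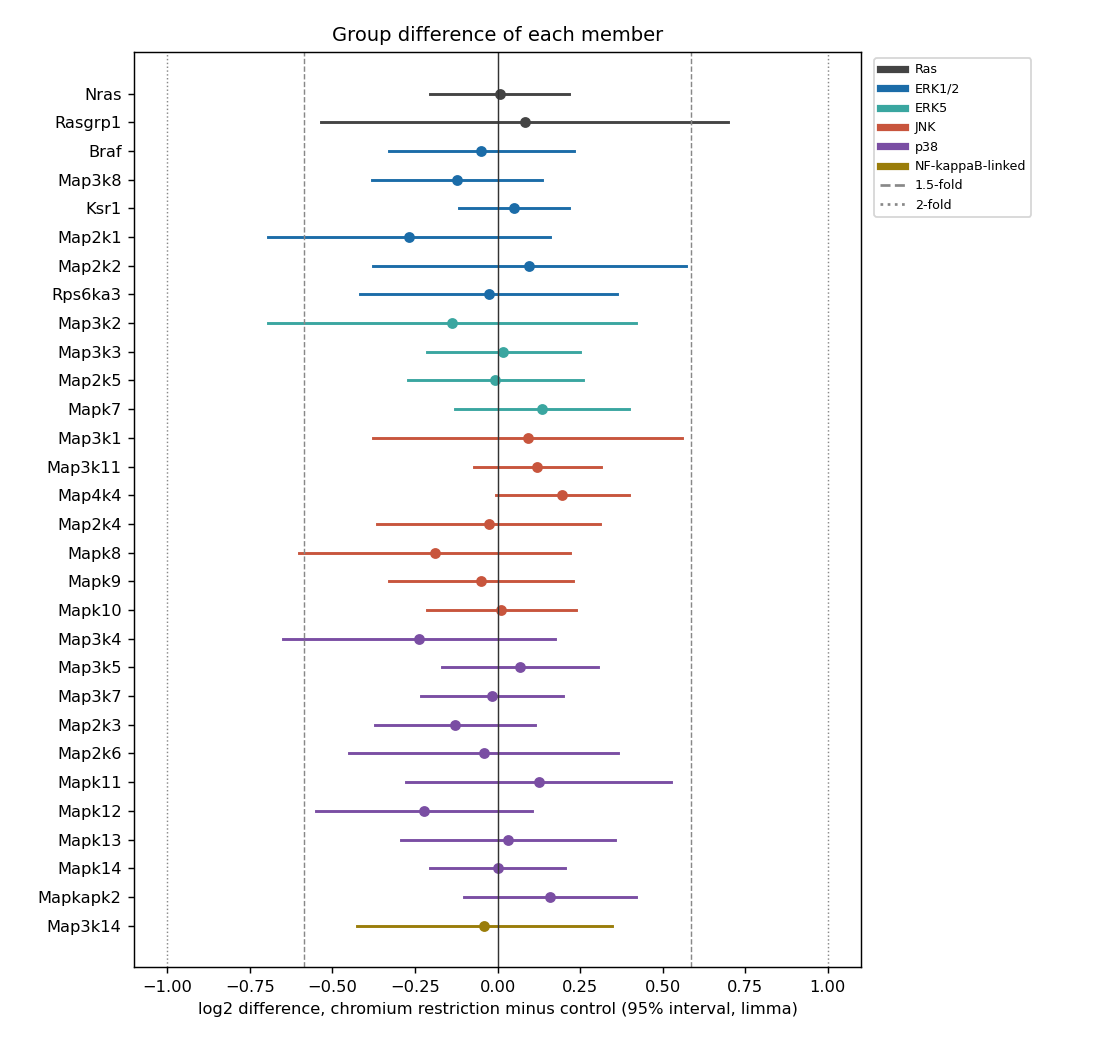
Log2 difference of each of the 30 analysed members, chromium restriction minus control, with its 95% interval from limma (n = 3 arrays per group), coloured by branch. Every interval includes 0 and lies between the dotted lines at 2-fold, and 25 of 30 lie between the dashed lines at 1.5-fold.

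Of the Ras proteins and their activators, Nras and Rasgrp1 were analysed. Nras, a Ras GTPase, had 7.68, 7.93 and 7.79 in chromium restriction replicates 1, 2 and 3, against 7.77, 7.77 and 7.85 in the controls. The groups overlapped, and the difference was 0.0072 ± 0.087 (SE, n = 3 per group). Rasgrp1, a guanine nucleotide exchange factor that activates Ras in lymphocytes, was at 5.28, 6.24 and 5.46 in the chromium restriction arrays and at 5.49, 5.76 and 5.48 in the controls. Rasgrp1 was dim, below the array median on 2 of the 6 arrays and dimmer than the median gene. Its range over the 6 arrays, 0.96, was the widest of the 30 members and came mostly from chromium restriction replicate 2. That array also held the highest value of 5 of 5 T cell and 5 of 5 B cell markers, and their part in the Rasgrp1 value was not tested. The difference for Rasgrp1 was 0.083 ± 0.25 with all arrays, -0.21 without chromium restriction replicate 2, and 0.66 for that array alone against the 3 controls (adjusted p = 0.754 in limma). In the last of these the chromium restriction group is 1 array, assumed to vary as the controls do.

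In the ERK1/2 branch 6 members were analysed, 2 above and 4 below 0, with a median difference of -0.038. Map2k1, which encodes MEK1, had 7.51, 8.22 and 7.87 in chromium restriction replicates 1, 2 and 3, against 8.12, 8.12 and 8.17 in the controls. The 3 controls spanned only 0.050, replicates 1 and 3 lay below all of them and replicate 2 above. This was the lowest difference among the members, -0.27 ± 0.18 (SE, n = 3, adjusted p = 0.911 in limma), a level 1.21-fold lower in the chromium restriction group. Replicates 1 and 3 are the arrays rich in liver transcripts, whose part in this was not tested. With the mean of the 7 liver genes as a covariate the difference turned to 0.075, and for replicate 2 alone against the controls it was 0.087. Without replicate 2 it was -0.45, with an adjusted p of 0.239 in limma.

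Map2k2, which encodes MEK2, had an SD of 0.36 among the controls, the largest of the 30 members. It was at 8.36, 8.02 and 8.15 in the chromium restriction arrays and at 7.66, 8.25 and 8.32 in the controls, a difference of 0.097 ± 0.20. The value of control replicate 1 was the lowest of the 6, and without that array the difference turned to -0.11. Braf, a Raf kinase upstream of MEK, differed by -0.049 ± 0.12. Ksr1, a scaffold that holds Raf, MEK and ERK together, had the smallest standard error of the members and differed by 0.049 ± 0.069. For Map3k8, a kinase that activates MEK1 downstream of inflammatory signals, the difference was -0.12 ± 0.11. Rps6ka3, which encodes the ERK-activated kinase RSK2, differed by -0.027 ± 0.16, with chromium restriction replicate 1 lowest at 9.85 and the other 5 arrays at 9.97 to 10.37.

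**Figure D2:**
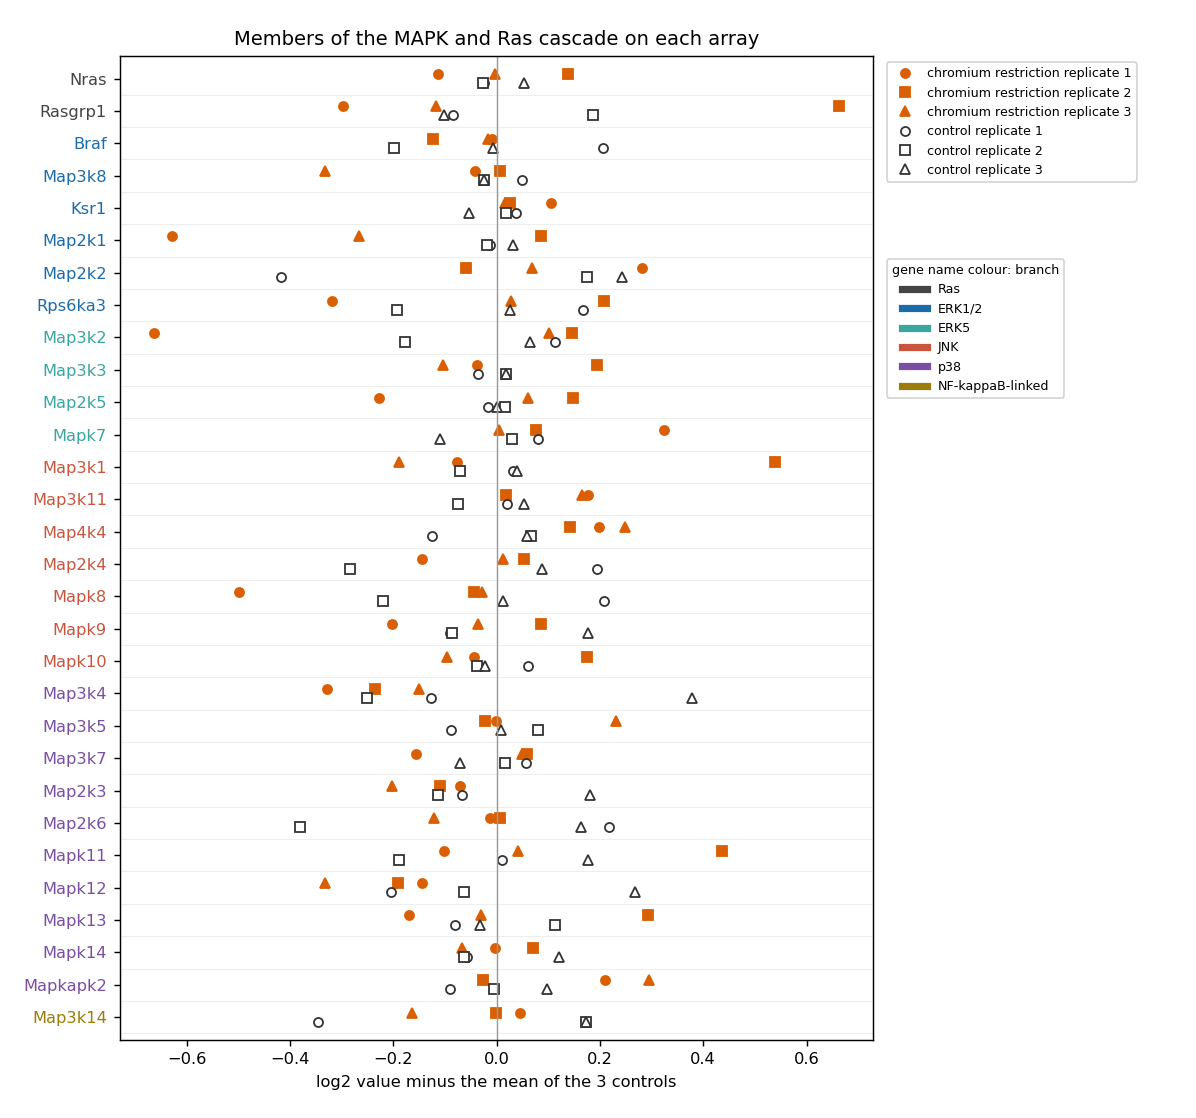
Value of each member on each of the 6 arrays, as log2 value minus the mean of the 3 controls, with genes grouped by branch. Filled orange symbols are chromium restriction arrays and open symbols controls; only for Map4k4 do all 3 chromium restriction arrays lie above all 3 controls, and replicates 1 and 2 of that group often lie on opposite sides of 0.

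The ERK5 branch had 4 members, 2 above and 2 below 0. Mapk7, which encodes ERK5, had values of 6.67, 6.43 and 6.35 in chromium restriction replicates 1, 2 and 3 and of 6.43, 6.38 and 6.24 in the controls. The groups overlapped and replicate 1 gave most of the difference of 0.13 ± 0.11 (SE, n = 3), which was 0.040 without it. Map2k5, which encodes the ERK5 activator MEK5, had 7.51, 7.89 and 7.80 in the chromium restriction arrays against 7.72, 7.76 and 7.74 in the controls. Here the controls spanned 0.033, while the chromium restriction arrays spread to both sides of them, for a difference of -0.0061 ± 0.11. Upstream, Map3k3 differed by 0.018 ± 0.096. Map3k2 was listed at 7.53 in chromium restriction replicate 1 and at 8.02 to 8.34 on the other 5 arrays. Its difference was -0.14 ± 0.23 with all arrays and 0.12 without replicate 1.

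In the JNK branch 7 members were analysed, 4 above and 3 below 0, with a median of 0.012. Map4k4, an upstream kinase that in mouse and human adipocytes is studied for its effect on insulin action and inflammation, had the highest difference of the 30 members. Its values were 9.38, 9.32 and 9.43 in chromium restriction replicates 1, 2 and 3, against 9.06, 9.25 and 9.24 in the controls. All 3 chromium restriction arrays lay above all 3 controls, the gap between the nearest pair being 0.0755. The difference was 0.20 ± 0.083 (SE, n = 3, adjusted p = 0.817 in limma), a 1.15-fold higher level, with an interval of -0.0052 to 0.40. Map4k4 was the only member whose groups did not overlap, 1 of 30 above, where 3.53% of all genes were, and 0 of 30 below, where 6.06% of all genes were. It stayed between 0.13 and 0.23 when any single array was left out and was 0.14 for replicate 2 alone against the controls.

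Map3k1, an upstream kinase of the JNK branch, was at 7.65, 8.26 and 7.54 in the chromium restriction arrays and at 7.76, 7.65 and 7.76 in the controls. Replicate 2 stood 0.54 above the control mean and replicate 3 below every control, so that the group difference of 0.091 ± 0.19 hid a wide spread. Replicate 1 lay just below the lowest control, at 7.647 against 7.6537. Without replicate 2 the difference was -0.13. Map3k11, which encodes the mixed lineage kinase MLK3, was at 7.36, 7.20 and 7.35 against 7.20, 7.11 and 7.24 in the controls, a difference of 0.12 ± 0.080. Map2k4, which encodes the JNK activator MKK4, had 7.97, 8.17 and 8.13 in the chromium restriction arrays and 8.31, 7.83 and 8.20 in the controls. The chromium restriction values lay inside the range of the controls, and the difference was -0.027 ± 0.14.

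Of the JNK genes themselves, Mapk8 and Mapk9 were lower and Mapk10 slightly higher, each with overlapping groups. Mapk8, which encodes JNK1, had 7.25, 7.70 and 7.72 in chromium restriction replicates 1, 2 and 3, against 7.95, 7.52 and 7.76 in the controls. The difference of -0.19 ± 0.17 (SE, n = 3) was -0.036 without replicate 1, the lowest array. It also moved with the controls, to -0.087 without control replicate 1, the highest array, and to -0.30 without control replicate 2. Mapk9, which encodes JNK2, was at 7.66, 7.95 and 7.83 in the chromium restriction arrays and at 7.78, 7.78 and 8.04 in the controls, a difference of -0.051 ± 0.12. Mapk10, which encodes JNK3, a form known mainly from brain and heart, lay below the array median on all 6 arrays. It was listed at 4.90, 5.12 and 4.85 in the chromium restriction arrays and at 5.001, 4.90 and 4.92 in the controls. At such dim values the difference of 0.012 ± 0.093 says little about the transcript.

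The p38 branch was the largest, with 10 members, 5 above and 5 below 0 and a median difference of -0.0079. Mapk14, which encodes p38 alpha, the form found in most tissues, was the member closest to 0. It had 7.62, 7.70 and 7.56 in the chromium restriction arrays against 7.57, 7.56 and 7.74 in the controls. The difference of 0.0006 ± 0.084 (SE, n = 3) had an interval of -0.20 to 0.20. Mapk11, which encodes p38 beta, had values of 5.92, 6.46 and 6.07 in chromium restriction replicates 1, 2 and 3 and of 6.04, 5.84 and 6.20 in the controls. Replicate 2 was again the highest array, and the difference was 0.12 ± 0.17 with it and -0.031 without it. Mapk12, which encodes p38 gamma, known for its level in skeletal muscle, was at 6.65, 6.60 and 6.46 against 6.59, 6.73 and 7.06 in the controls. The groups overlapped at a difference of -0.22 ± 0.14, which was -0.089 without control replicate 3, the highest array. Mapk13, which encodes p38 delta, lay below the array median on all 6 arrays. Its values were 4.85, 5.31 and 4.99 in the chromium restriction arrays and 4.94, 5.13 and 4.99 in the controls, with replicate 2 of the first group highest.

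Upstream of p38, Map2k3 and Map2k6 encode the activators MKK3 and MKK6. Map2k3 had 8.23, 8.19 and 8.09 in the chromium restriction arrays against 8.23, 8.18 and 8.48 in the controls, and control replicate 3 set most of the difference of -0.13 ± 0.10. Map2k6 was at 6.24, 6.26 and 6.13 in the chromium restriction arrays and at 6.47, 5.87 and 6.42 in the controls. The chromium restriction values lay between those of the controls, for a difference of -0.042 ± 0.17. Map3k4, an activator of the p38 and JNK branches, had 7.45, 7.54 and 7.62 in chromium restriction replicates 1, 2 and 3, against 7.65, 7.52 and 8.15 in the controls. Control replicate 3 was high here as well, and without it the difference of -0.24 ± 0.17 became -0.049. Map3k4 was the 1 member with 2 probe sets, and its dimmer one differed by -0.028 ± 0.10. Map3k5, the stress-activated kinase ASK1, differed by 0.069 ± 0.097, and Map3k7, the kinase TAK1 downstream of cytokine receptors, by -0.017 ± 0.088.

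Mapkapk2, which encodes the p38 substrate kinase MK2, had the next highest difference after Map4k4. It had values of 8.88, 8.64 and 8.96 in chromium restriction replicates 1, 2 and 3 and of 8.57, 8.66 and 8.76 in the controls. Replicates 1 and 3, the arrays rich in liver transcripts, lay above every control, while replicate 2 lay among them. The difference was 0.16 ± 0.11 (SE, n = 3, adjusted p = 0.921 in limma) and turned to -0.016 with the liver genes as covariate. Map3k14, the NF-kappaB-inducing kinase of the non-canonical NF-kappaB pathway, differed by -0.039 ± 0.16. Its lowest value was 5.36, in control replicate 1.

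For 24 of 30 members the SD inside the chromium restriction group was larger than the group difference, the exceptions being Ksr1, Map3k11, Map4k4, Map3k4, Map2k3 and Mapk12. The SD within that group had a median of 0.14 over the members, against 0.11 within controls, and it was the larger of the 2 for 19 of 30 members (63.3%) and for 53.7% of all genes. Chromium restriction replicate 2 was the highest of the 6 arrays for 12 of 30 members, and 12.9% of all genes had their highest value there. Replicate 1 was the lowest array for 11 of 30 members, against 25.1% of all genes. In 5 members (Rasgrp1, Map2k1, Map3k3, Map3k1 and Mapk10) replicates 1 and 3 lay below every control and replicate 2 above every control, an arrangement seen in 2.64% of all genes. Some of these orders rested on close values. Replicate 1 and the lowest control were at 8.1386 and 8.1399 for Map3k3, 4.8973 and 4.9026 for the dim Mapk10, and 7.647 and 7.6537 for Map3k1. They were at 5.2803 and 5.4755 for Rasgrp1 and at 7.5079 and 8.1165 for Map2k1. For Rasgrp1 replicate 3 was closer to that control, at 5.4606. For Map2k1 replicate 2 was at 8.2221 and the highest control at 8.1668. These counts describe 6 arrays and carry no test, because the members share the same RNA samples.

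Branch means, taken after each gene was set against its control mean, showed the same opposition. In replicate 1 all 5 branches of at least 2 genes were below 0, from -0.21 for Ras and -0.15 for ERK5 to -0.10 for ERK1/2, -0.085 for JNK and -0.078 for p38. In replicate 2 all 5 were above 0, at 0.40 for Ras, 0.14 for ERK5, 0.14 for JNK, 0.028 for p38 and 0.024 for ERK1/2. The p38 median in replicate 2 was -0.0085, its mean being raised by Mapk11 and Mapk13. In replicate 1 the ERK1/2 median was -0.025, its mean being lowered by Map2k1 at -0.63. The ERK5 median there was -0.13, with Map3k2 at -0.66 and Mapk7 at 0.32. In replicate 3 the means lay between -0.084 for ERK1/2 and 0.016 for ERK5. Single controls also moved, the p38 branch being at 0.13 in control replicate 3 and at -0.043 and -0.086 in control replicates 1 and 2. The mean over all genes stayed between -0.011 and 0.012 on every array.

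**Figure D3:**
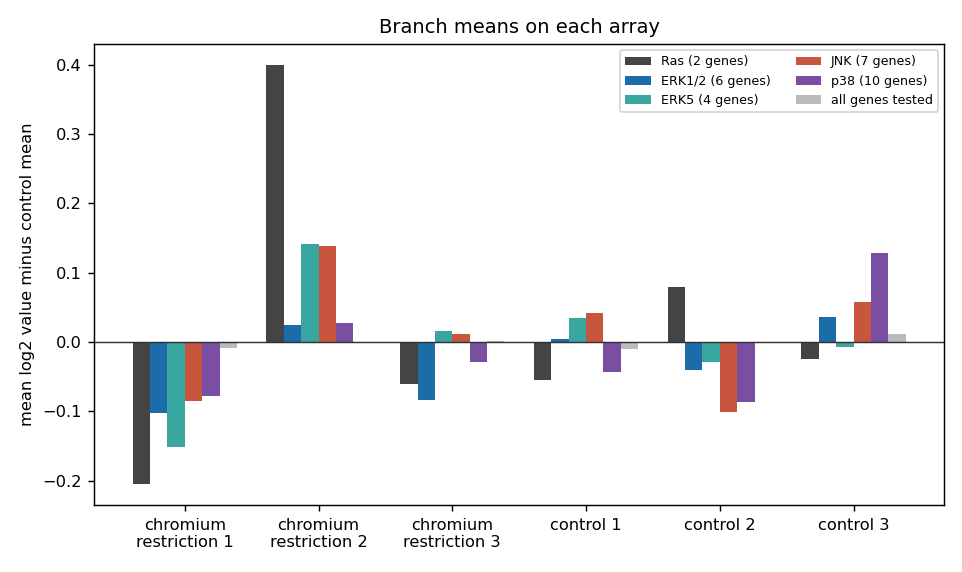
Mean over the members of each of the 5 branches with at least 2 genes of the log2 value minus that gene's control mean, for each of the 6 arrays, with all 22180 genes in grey. Bars start at 0; these 5 branch means are negative in chromium restriction replicate 1 and positive in replicate 2, so none of them is on 1 side of 0 in all 3 chromium restriction arrays.

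**Figure D4:**
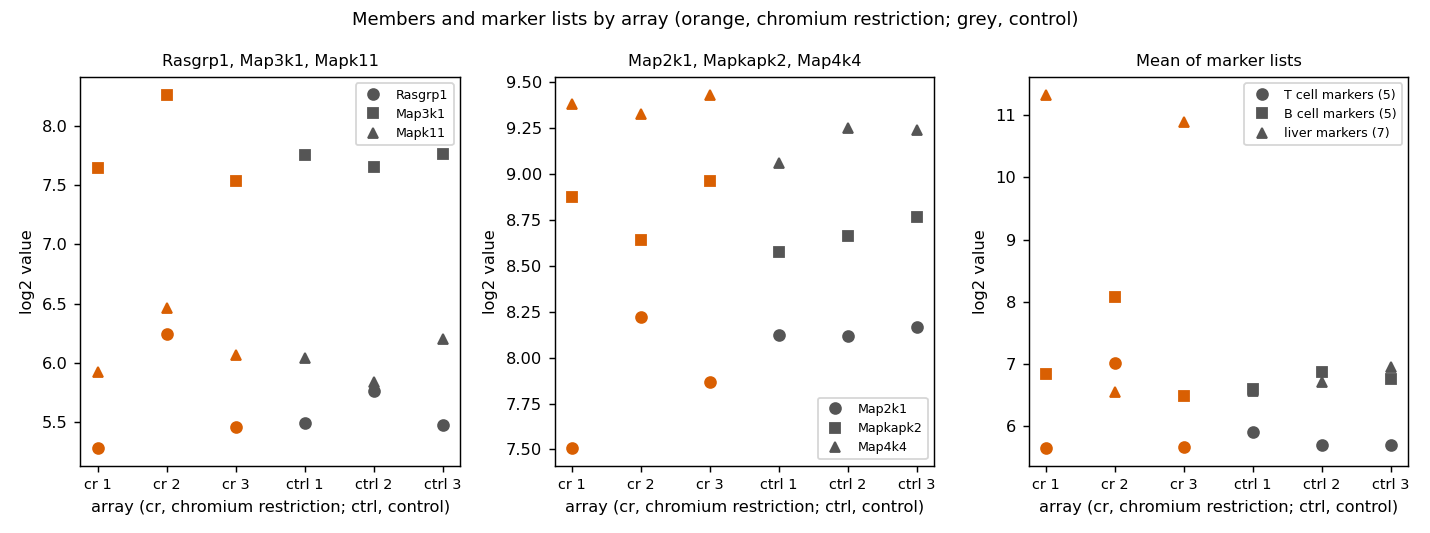
Log2 values on each array of Rasgrp1, Map3k1 and Mapk11 (left), Map2k1, Mapkapk2 and Map4k4 (middle), and the mean of T cell, B cell and liver marker lists (right). Rasgrp1, Map3k1 and Mapk11 are highest in chromium restriction replicate 2, where T and B cell markers are also highest. Map2k1 is lowest and Mapkapk2 highest in replicates 1 and 3, where the liver marker mean is 11.33 and 10.90. Of the 30 members 12 are highest in chromium restriction replicate 2, Map2k1 among them. The part of these transcripts in the member values was not tested.

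Adjusting for the liver genes moved several members without bringing any past the test. With the mean of the 7 liver genes as covariate, a fit in which the group difference rests mostly on replicate 2, differences ran from -0.25 to 0.63 and the median over the members was 0.061. Rasgrp1 differed by 0.63 ± 0.15, Map3k1 by 0.50 ± 0.12 and Mapk11 by 0.41 ± 0.16 in that fit, with adjusted p of 0.528, 0.596 and 1.0 in limma. Over all alternatives the adjusted p ran from 0.528 to 1.0 for Rasgrp1, from 0.596 to 1.0 for Map3k1, from 0.893 to 1.0 for Mapk11, from 0.239 to 1.0 for Map2k1 and from 0.464 to 1.0 for Map4k4. Rasgrp1, Map3k1 and Mapk11 are among the members highest in the array with more lymphocyte transcripts, and 10 members changed sign. With replicate 2 alone set against the 3 controls, Rasgrp1 was at 0.66, Map3k1 at 0.54 and Mapk11 at 0.44.

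**Figure D5:**
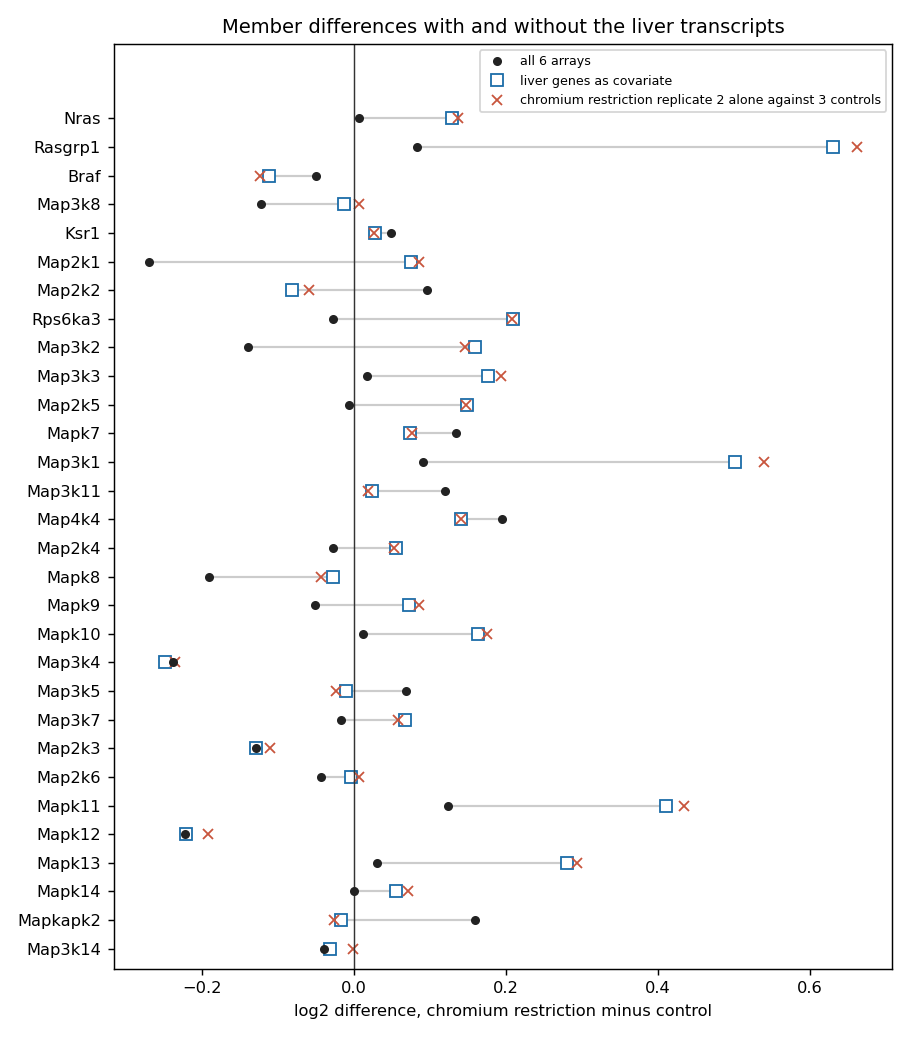
Log2 difference of each member with all 6 arrays (filled circles), with the mean of 7 liver genes as covariate (open squares) and for chromium restriction replicate 2 alone against 3 controls (crosses). The squares and crosses nearly coincide, and they lie farthest from the circles for Rasgrp1, Map3k1, Map2k1, Map3k2 and Mapk11.

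Other genes of these pathways were taken from a list of 66, of which 56 were analysed: 21 differed above and 35 below 0, with a median of -0.029. The share above 0 was 37.5%, against 43.2% of all genes. In limma 1 of the 56 passed an adjusted p of 0.05 (1.79%), upward, and 0 passed downward, where 0.194% of all genes passed. That gene was Taok3, a TAO kinase upstream of MAP kinase kinases, at 8.10, 8.21 and 8.18 in the chromium restriction arrays against 7.22, 7.12 and 7.44 in the controls. Its difference was 0.90 ± 0.099 (SE, n = 3, adjusted p = 0.0407), but all 3 chromium restriction values, and none of the controls, were written with extra digits. Leaving out single arrays ended its call in 5 of 6 cases, with adjusted p up to 0.282 in limma. It also ended with median centring (adjusted p = 0.140 in limma), with the liver covariate (0.146) and with the replicate number as a block (0.312). With rows of extra digits left out, Taok3 had no value. The size of the difference changed little, at 0.89 with median centring, 0.94 with the liver covariate and 0.83 to 0.99 with single arrays left out, and over all its alternatives the adjusted p ran from 0.0087 to 0.348.

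At an unadjusted p under 0.05, 2 of these 56 genes were higher and 3 lower, 8.93% in all, against 5.95% of all genes. Besides Taok3 the higher gene was Spred2, an inhibitor of Ras to ERK signalling, at 7.20, 6.84 and 7.27 in chromium restriction replicates 1, 2 and 3 and at 6.72, 6.52 and 6.77 in the controls. All 3 lay above the controls, with a difference of 0.43 ± 0.14 (adjusted p = 0.770 in limma) that was 0.19 with the liver covariate. The 3 lower genes were Tab1, Tab3 and Map3k6. Tab1, a partner of TAK1, was at 6.37, 6.62 and 6.49 against 6.72, 6.73 and 6.85 in the controls, without overlap. Its difference of -0.27 ± 0.090 became -0.16 with the liver covariate (adjusted p = 0.772 and 1.0 in limma). Tab3, another TAK1 partner, differed by -0.51 ± 0.20 and Map3k6, the kinase ASK2, by -0.45 ± 0.16, each with an adjusted p of 0.817 in limma. With the liver covariate these were -0.23 and -0.29. The lowest adjusted p under any alternative was 0.0935 for Spred2, 0.238 for Tab1, 0.235 for Tab3 and 0.346 for Map3k6, each without chromium restriction replicate 2, and the highest was 1.0 for all 4. In all, 4 of 56 genes lay wholly above and 4 wholly below the controls, against 3.53% and 6.06% of all genes.

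The promoters of a pair of members are shown because Map2k1 had the lowest group difference and Rasgrp1 the widest range over the arrays. RefSeq starts of build GRCm38.p6 were found for 26 of the 30 members, 34 starts in all, and the 250 bases before each start were searched on both strands. The motifs were the AP-1 site TGANTCA, bound by Fos and Jun proteins, the cyclic AMP response element TGACGTCA with its shorter core TGACG, which every full element also contains, and the ETS site CCGGAAGT. The Map2k1 promoter lies at chr9:64253606-64253855 and that of Rasgrp1 at chr2:117342878-117343127, both on the minus strand, and capitals mark the motif matches.
Map2k1: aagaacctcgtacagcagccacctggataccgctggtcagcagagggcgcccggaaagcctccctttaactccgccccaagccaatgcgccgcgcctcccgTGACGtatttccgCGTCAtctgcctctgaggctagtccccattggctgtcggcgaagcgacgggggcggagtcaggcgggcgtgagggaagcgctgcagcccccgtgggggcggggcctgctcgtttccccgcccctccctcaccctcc
Rasgrp1: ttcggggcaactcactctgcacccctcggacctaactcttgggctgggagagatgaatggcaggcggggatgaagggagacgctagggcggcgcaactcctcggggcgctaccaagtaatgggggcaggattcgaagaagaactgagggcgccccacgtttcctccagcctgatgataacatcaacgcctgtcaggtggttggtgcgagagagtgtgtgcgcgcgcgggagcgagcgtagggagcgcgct
The Map2k1 window held 2 short cores, on opposite strands, and Rasgrp1 none of the motifs. Short cores were in 10 of 34 member starts (29.4%), against 17.8% of all 32851 starts. The full element was in 2 of 34, in Braf and Mapk10, against 1.55% of all starts. AP-1 sites were in 2 of 34, in Ksr1 and Map2k6, against 6.75%, and ETS sites in 1 of 34, in Map3k11, against 2.88%. Member windows had a median G and C content of 62.2%, against 52.4% over all starts. A match describes letters in the window and is not evidence that a factor binds there.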

How the data were processed

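Per the labels, biotin-labelled total RNA of 6 samples was hybridised, 1 array each. The deposited log2 values cover 33793 probe sets; the scale was inferred from their range, 3.49 to 14.86. How the authors summarised and normalised the arrays is not stated in the labels or the file, and nothing was rescaled here. Symbols came from the supplied platform annotation (1 symbol for 23521 probe sets), and the brightest probe set stood for each of 22180 genes. All 30 member symbols matched RefSeq. Rows with extra digits, 64 probe sets, hold at least 1 value with more digits than single precision needs.

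Groups were compared with limma 3.58.1 (lmFit, eBayes) under R 4.3.3, two-sided, adjusting p over every gene by Benjamini-Hochberg, with 95% intervals from the moderated standard error. In simulated data of 22180 genes with 200 changed, limma recovered 83.2% at 1 log2 unit and 97.4% at 2, and 3.52% of its calls were false. The simulated noise was normal, independent between genes and of equal spread on every array. It held no liver or lymphocyte transcripts that differ between arrays, so these rates need not hold for the deposited arrays. The number of arrays limits the precision.

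The members, lists and alternatives were chosen with earlier results of these data known. Every member is named; values on all arrays are given for MAP kinases, MAP kinase kinases, members whose groups do not overlap and the 3 highest and lowest differences. Those of Nras, Rasgrp1, Map3k1 and Map3k11 were added after their values were seen. Other pathway genes are named at an unadjusted p under 0.05.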

Additional observations from a re-analysis of the deposited data

How the results depend on the processing

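No member passed an adjusted p of 0.05 in limma under any of the 16 alternatives, the smallest adjusted p being 0.239 (Map2k1, without chromium restriction replicate 2). The count of members with an unadjusted p under 0.05, 0 with all arrays, was 1 with quantile normalization (7.37% of all genes), 1 with array weights (9.57%), 3 with the liver covariate (3.97%), 2 without both liver-rich arrays (4.18%), and 0 to 2 when single arrays were left out (4.31% to 11.5%). The fit without both liver-rich arrays takes its spread from the 3 controls. Genes past the test over all genes numbered 43, 0 with the replicate block (1337 at an unadjusted p under 0.05), 0 without rows with extra digits, 6 without both liver-rich arrays, and 24 to 439 when single arrays were left out, the highest without chromium restriction replicate 2 and the lowest without chromium restriction replicate 3 or any control. Same-numbered arrays did not deviate together (correlations of -0.12, -0.095 and 0.078), so the numbers were not taken as pairs. With 3 arrays in each group a replicate block cannot change a difference, and its smallest adjusted p among the members was 0.866.

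Several members changed sign, among them Map2k1, the lowest with all arrays, and Mapkapk2, the second highest. With quantile normalization Map2k5 was at 0.014 and Map3k7 at 0.0043. With median centring Nras was at -0.011, Map3k3 at -0.0001, Mapk10 at -0.0057 and Mapk14 at -0.017. With array weights Rps6ka3 was at 0.0097, Map3k3 at -0.032, Map2k5 at 0.036, Map3k1 at -0.024, Mapk10 at -0.034, Map3k7 at 0.018 and Mapk14 at -0.027. With the liver covariate Map2k1 was at 0.075, Map2k2 at -0.081, Rps6ka3 at 0.21, Map3k2 at 0.16, Map2k5 at 0.15, Map2k4 at 0.055, Mapk9 at 0.073, Map3k5 at -0.0095, Map3k7 at 0.067 and Mapkapk2 at -0.016. Without both liver-rich arrays Map3k8 was at 0.0073, Map2k1 at 0.087, Map2k2 at -0.059, Rps6ka3 at 0.21, Map3k2 at 0.15, Map2k5 at 0.15, Map2k4 at 0.053, Mapk9 at 0.086, Map3k5 at -0.023, Map3k7 at 0.058, Map2k6 at 0.0064 and Mapkapk2 at -0.026. The cause was not tested.

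Leaving out single arrays changed the sign of 19 members. Their ranges were -0.058 to 0.067 for Nras, -0.21 to 0.27 for Rasgrp1, -0.15 to 0.054 for Braf, -0.11 to 0.22 for Map2k2, -0.14 to 0.12 for Rps6ka3, -0.28 to 0.12 for Map3k2, -0.071 to 0.078 for Map3k3, -0.083 to 0.10 for Map2k5, -0.13 to 0.23 for Map3k1, -0.17 to 0.071 for Map2k4, -0.12 to 0.037 for Mapk9, -0.070 to 0.066 for Mapk10, -0.012 to 0.12 for Map3k5, -0.054 to 0.053 for Map3k7, -0.23 to 0.066 for Map2k6, -0.031 to 0.24 for Mapk11, -0.100 to 0.13 for Mapk13, -0.035 to 0.061 for Mapk14 and -0.21 to 0.047 for Map3k14. Mapk10, Mapk13, Rasgrp1 and Map3k14, dimmer than the median gene, gave no value with the filter on dim genes.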
